A study of Homo sapiens with 12 samples.

Results

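The 10 genes described here encode the core enzymes that remove superoxide and peroxides: the superoxide dismutases SOD1 and SOD2, catalase (CAT), the glutathione peroxidases GPX1 and GPX4, and the peroxiredoxins PRDX2, PRDX3, PRDX4, PRDX5 and PRDX6. They were taken by gene symbol from a table of 19973 genes, and all 10 were found. RNA was sequenced from H460 and A549, established human non-small cell lung cancer (NSCLC) lines labelled as wild type. The paper states that both lines carry homozygous mutations that inactivate KEAP1, a loss it links to an active antioxidant response through NRF2. There were 3 libraries for each of 4 groups and 12 libraries in all. The groups were non-treated cells, called control here, and cells treated with Isovalerylspiramycin I (ISP-I) at 10 µM for 48 h. ISP-I is a purified component of the macrolide antibiotic carrimycin, and the study asked which genes it changes in cells whose reactive oxygen species it followed. The labels do not say that the libraries of a group came from separate cultures, so p values measure the spread between these libraries, which may be technical. Each line is a single cell line and stands for itself only.

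Superoxide dismutases convert superoxide, a by-product of respiration and of NADPH oxidases, into hydrogen peroxide. Catalase in peroxisomes splits hydrogen peroxide without an electron donor, and glutathione peroxidases reduce peroxides with glutathione. Peroxiredoxins reduce peroxides with a reactive cysteine, which thioredoxin restores in most of the family. Glutathione and thioredoxin are both kept reduced by NADPH. The enzymes divide the cell between them: SOD1 is mainly cytosolic and uses copper and zinc, SOD2 is in the mitochondrial matrix and uses manganese, PRDX3 is mitochondrial, PRDX4 is in the endoplasmic reticulum, and PRDX2 and PRDX6 are mainly cytosolic.

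Libraries held 14225849 to 17874422 reads on genes. Levels are given as FPKM, which divides reads by gene length and by the total of a library, and are shares of a library's RNA, so that fewer cells expressing a gene and less RNA per cell cannot be told apart. Of the epithelial markers, KRT8, KRT18 and KRT19 averaged 45.6 FPKM or more in every group. KRT7 averaged 1.17 and 2.35 FPKM in H460 control and ISP-I but 557 and 614 FPKM in A549. The 4 lung lineage markers NKX2-1, SFTPB, SFTPC and NAPSA summed to at most 0.440 FPKM in a library and the 5 endothelial markers to at most 0.472 FPKM. EPCAM and CDH1, which mark epithelial cells, averaged 0.0473 and 0 FPKM in H460 control. The 5 leukocyte markers summed to 5.18 to 6.48 FPKM in H460 control, nearly all of it CD14, and to 0.875 to 1.69 FPKM in H460 ISP-I, with at most 1.32 FPKM in A549, and CD3E was at 0 in every group. The 6 fibroblast markers summed to 9.66 to 11.1 FPKM in H460 control, to 5.01 to 5.85 FPKM in H460 ISP-I and to 1.48 to 2.19 FPKM in A549. The part of these genes in the results below was not tested. A pair of libraries stood apart. In H460 ISP-I library 3 the 395 expressed genes with a listed length under 1500 bases had a median log2 difference of 0.60 from the other libraries of its group, and in A549 control library 3 it was 0.27. The same measure was -0.43 in H460 ISP-I library 2 and -0.21 in library 1, each set against a mean that holds library 3, and -0.20 in A549 control library 2. All 9 members with over 100 reads in the group were higher in H460 ISP-I library 3 than in its group mates. The ratios ran from 1.18 to 2.71. PRDX5, with the shortest listed length, was the highest, and GPX1, GPX4 and PRDX2 followed at 2.24, 2.02 and 1.85 times. These members are also the richest in G and C. PRDX4, at 1855 bases, was at 1.28 times, below PRDX3, at 3379 bases, with 1.73 times. The part of length or of G and C was not tested. Results that rest on these libraries are given with and without them.

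**Figure D1:**
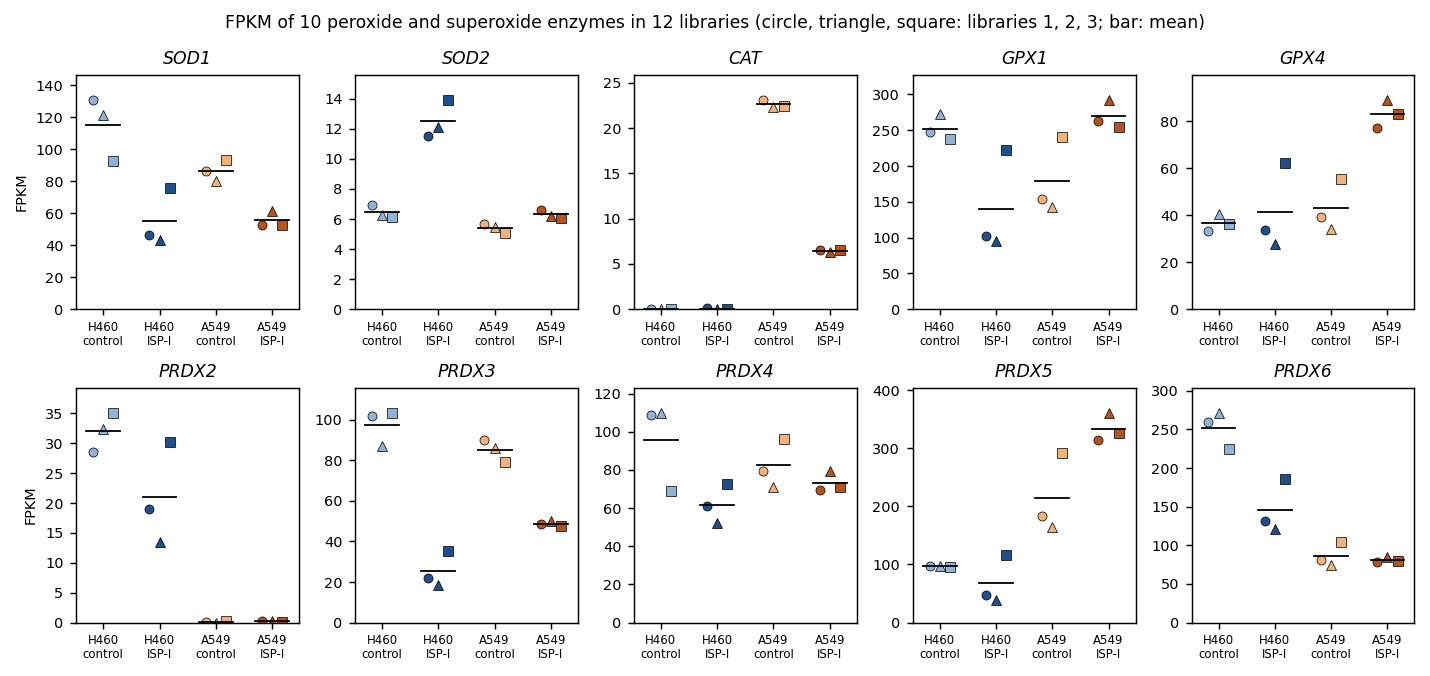
FPKM (y axis, from 0, a scale of its own for each gene) of the 10 genes in the 3 libraries of each group, with the group mean as a bar. CAT lies at 22.3 to 23.1 FPKM in A549 control and near 0 in H460, PRDX2 the reverse, and the square of H460 ISP-I library 3 lies above the other libraries of its group in 9 panels.

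SOD1 fell and SOD2 rose in H460 after ISP-I. SOD1 (chr21:31659666-31668931, plus strand, hg38) was at 131, 121 and 92.4 FPKM in H460 control and at 46.1, 43.1 and 75.7 FPKM in H460 ISP-I, so the groups did not overlap. The log2 difference, ISP-I minus control, of log2(FPKM + 1) was -1.08 ± 0.23 (SE, n = 3 against 3, limma adjusted p = 0.0030). In A549, SOD1 went from 86.4, 79.8 and 93.1 FPKM to 52.9, 61.4 and 52.4 FPKM, again without overlap, and the log2 difference was -0.63 ± 0.09 (SE, limma adjusted p = 0.00048). Every treated library of either line was therefore below every control library of its line. Adjusted p values throughout are Benjamini-Hochberg values over all genes tested in a comparison. Unless another setting is named, these are genes whose mean reached 0.1 FPKM in the line. For comparisons between the lines it is the mean of all 12 libraries that had to reach it.

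SOD2 (chr6:159669069-159762529, minus strand) was at 6.91, 6.27 and 6.17 FPKM in H460 control and at 11.5, 12.1 and 13.9 FPKM in H460 ISP-I. All 3 treated libraries lay above the controls, and the log2 difference was 0.86 ± 0.12 (SE, limma adjusted p = 0.00022). It was the only member called higher in H460. In A549 the values were 5.65, 5.47 and 5.08 FPKM in control and 6.63, 6.23 and 6.06 FPKM in ISP-I. These groups did not overlap either, but the log2 difference of 0.19 ± 0.08 (SE) missed the threshold (limma adjusted p = 0.059). The listed SOD2 gene is 18144 bases long, with a MANE Select transcript of 14167 bases. Its span holds WTAP on the opposite strand, which averaged 7.41 FPKM in H460 control and 14.4 FPKM in H460 ISP-I. ACAT2, also on the opposite strand, overlaps the upstream end of the span and averaged 9.97 and 4.16 FPKM. Both genes lie upstream of the MANE Select start, outside that transcript. The strand setting of the counting is not given in the sources used here, so reads from the overlap cannot be told apart.

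The promoter is shown because SOD2 was the only member called higher in H460. Of the 4 windows listed for SOD2, the one at the MANE Select start is used. In the RefSeq promoter table (GRCh38.p14) the window that begins 250 bases before the MANE Select start of SOD2 and ends 50 bases after it held 40 CpG dinucleotides and 78.3% G and C, against medians of 14 and 58.7% over 35116 windows of the same length. It held 6 matches of the GC box (GGGCGG, on either strand, overlaps counted), the letters bound by SP-family factors, which 44.95% of all windows hold at least once. It held no match of the core of the antioxidant response element (TGACNNNGC, in 13.3% of windows), of an NF-kB motif (GGGANTTTC, in 1.28%) or of a FOXO motif (GTAAACA, in 3.42%), which says only that these letters are not in this window. The part upstream of the start, 5′ to 3′ on the minus strand, chr6:159693242-159693491, is given with the GC boxes in capitals.
SOD2 promoter: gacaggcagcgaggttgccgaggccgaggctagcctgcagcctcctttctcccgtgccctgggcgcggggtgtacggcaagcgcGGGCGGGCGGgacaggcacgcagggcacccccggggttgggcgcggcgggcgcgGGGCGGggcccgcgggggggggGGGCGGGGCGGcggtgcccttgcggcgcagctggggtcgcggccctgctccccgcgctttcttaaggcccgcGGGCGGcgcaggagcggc

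Catalase was read almost only in A549. CAT (chr11:34438934-34472060, plus strand) was at 23.1, 22.3 and 22.5 FPKM in A549 control, from 1178, 1172 and 1187 reads, and fell to 6.49, 6.36 and 6.49 FPKM in A549 ISP-I, from 347, 357 and 333 reads. The treated libraries were at 0.285 of the control level, with a log2 difference of -1.67 ± 0.06 (SE, limma adjusted p = 7e-07), the largest fall among the members in A549. H460 control held 1, 0 and 1 CAT reads and H460 ISP-I held 8, 1 and 1, where a count of 0 allows up to 3 reads. CAT was therefore under the filter on low values in H460 and was not tested there. Summed over libraries and scaled to the totals, A549 control held 1800.3 times the CAT reads of H460 control (exact 95% interval 498 to 14871, from 3537 and 2 reads), and A549 ISP-I held 114 times those of H460 ISP-I (61.7 to 238, from 1037 and 10 reads). These intervals, here and for PRDX2, cover counting error only.

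The promoters of CAT and PRDX2 are shown because these members were near absent in a line each. The CAT window held 20 CpG dinucleotides, 68.0% G and C and 1 GC box, and none of the other 3 motifs. Its upstream part lies at chr11:34438684-34438933 on the plus strand, with the GC box in capitals.
CAT promoter: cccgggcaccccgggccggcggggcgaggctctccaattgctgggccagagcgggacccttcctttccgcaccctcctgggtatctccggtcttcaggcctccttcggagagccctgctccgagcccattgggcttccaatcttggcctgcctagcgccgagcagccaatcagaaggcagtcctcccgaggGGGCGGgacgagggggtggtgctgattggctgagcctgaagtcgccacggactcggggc

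Among the genes listed around CAT, chosen after their values were seen, NAT10 averaged 34.4 FPKM in H460 control and 29.5 FPKM in A549 control, and CAPRIN1 averaged 50.1 and 51.8 FPKM. ABTB2, the nearest listed gene before CAT, averaged 4.82 and 12.5 FPKM, and ELF5, the next after it, had no reads in the controls of either line. EHF, the second listed gene after CAT, averaged 0.0949 FPKM in H460 control, 2.83 FPKM in A549 control and 1.05 FPKM in A549 ISP-I. Neighbours thus ran both ways, NAT10 and CAPRIN1 alike in the lines and EHF, like CAT, higher in A549 control.

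The glutathione peroxidases moved differently in the lines. GPX1 (chr3:49357176-49358358, minus strand), the main cytosolic enzyme of the family, was at 247, 272 and 238 FPKM in H460 control and at 103, 95.2 and 222 FPKM in H460 ISP-I. The log2 difference was -0.95 ± 0.30 (SE, limma adjusted p = 0.019). Library 3 of H460 ISP-I was near the controls and the other treated libraries were far below them. Without that library the difference was -1.34 (limma adjusted p = 5.7e-06), while without H460 control library 1 or 2 or ISP-I library 1 or 2 the call was lost, at limma adjusted p values of 0.052 to 0.079. In A549, GPX1 went from 154, 143 and 240 FPKM to 263, 293 and 255 FPKM, a log2 difference of 0.63 ± 0.18 (SE, limma adjusted p = 0.018), and without A549 control library 3 it was 0.86 (limma adjusted p = 1.3e-06). This call was lost without A549 control library 1 or 2 or ISP-I library 1 or 2, at limma adjusted p values of 0.0503 to 0.0699.

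GPX4 (chr19:1103926-1106791, plus strand) reduces lipid peroxides within membranes and guards against ferroptosis. It rose in A549, from 39.4, 34.1 and 55.5 FPKM to 77.2, 89.3 and 83.1 FPKM, without overlap, with a log2 difference of 0.96 ± 0.16 (SE, limma adjusted p = 0.0012). In H460 the values were 33.1, 40.4 and 36.4 FPKM in control and 33.9, 27.7 and 62.1 FPKM in ISP-I, and the groups overlapped. The log2 difference in H460 was 0.09 (95% interval -0.52 to 0.69, limma adjusted p = 0.78), and it turned to -0.25 without H460 ISP-I library 3 (limma adjusted p = 0.11).

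G and C made up 62.5% of the GPX1 transcript, 62.5% of that of GPX4, 60.4% of that of PRDX5 and 57.5% of that of PRDX2, against 41.8% to 49.7% for the other members. Set against the mean of all libraries, genes of 60% G and C differed from genes of 45% by -0.47 to -0.10 on the log2 scale in the H460 ISP-I libraries, by 0.02 to 0.24 in the H460 controls, by 0.04 in A549 control libraries 1 and 2 and by 0.34 in A549 control library 3. In the A549 ISP-I libraries they differed by -0.04 to -0.02. With this trend removed from every library, the log2 difference in H460 was -0.40 for GPX1 (limma adjusted p = 0.17), 0.64 for GPX4 (limma adjusted p = 0.020), -0.14 for PRDX5 (limma adjusted p = 0.69) and -0.14 for PRDX2 (limma adjusted p = 0.54). PRDX4, at 48.5% G and C, was at -0.38 in H460 and also lost its call (limma adjusted p = 0.12). The rises of GPX1, GPX4 and PRDX5 in A549 were 0.73, 1.06 and 0.78 with the trend removed and passed the test.

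Of the peroxiredoxins, PRDX3 fell furthest. PRDX3 (chr10:119167720-119178812, minus strand), the mitochondrial member, was at 102, 87.2 and 103 FPKM in H460 control and at 22.2, 18.8 and 35.4 FPKM in H460 ISP-I. The treated mean was 0.261 of the control mean, and the log2 difference was -1.94 ± 0.22 (SE, limma adjusted p = 7.1e-05). In A549 it went from 89.9, 86.1 and 79.3 FPKM to 48.4, 49.9 and 47.7 FPKM, a log2 difference of -0.79 ± 0.07 (SE, limma adjusted p = 3.8e-05). The groups were apart in both lines, and without H460 ISP-I library 3 the fall in H460 was -2.20. PRDX3 and SOD2, which work in the same compartment, were thus called in opposite directions in H460.

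The PRDX3 window is shown because PRDX3 and SOD1 were called lower in both lines, and the table has no SOD1 window. The PRDX3 window held 18 CpG dinucleotides, 61.3% G and C, 3 GC boxes and 1 match of the NF-kB motif. No other member with a window held that motif, and SOD1 and PRDX6 had no window. A match is a description of letters and not a bound site. The upstream part lies at chr10:119178813-119179062 on the minus strand, with both motifs in capitals.
PRDX3 promoter: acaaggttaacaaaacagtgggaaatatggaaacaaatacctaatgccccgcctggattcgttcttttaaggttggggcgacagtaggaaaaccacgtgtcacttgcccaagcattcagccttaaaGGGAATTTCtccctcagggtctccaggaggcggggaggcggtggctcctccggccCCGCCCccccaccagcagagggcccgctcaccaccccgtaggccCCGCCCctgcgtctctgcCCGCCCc

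PRDX2 was the reverse of CAT between the lines. PRDX2 (chr19:12796820-12801800, minus strand), abundant in red blood cells and widely expressed, was at 28.6, 32.4 and 35.1 FPKM in H460 control, while the A549 control libraries held 1, 0 and 10 reads of it. A549 ISP-I held 8, 6 and 3 reads. The summed reads of H460 control, 2899, were 259 times the 11 reads of A549 control after scaling (exact 95% interval 144 to 519), and 10 of those 11 came from A549 control library 3. The ISP-I groups differed by 111 times (68.9 to 190.1, from 2063 and 17 reads). JUNB, the nearest listed gene before PRDX2, averaged 38.2 FPKM in H460 control and 24.8 FPKM in A549 control, and GET3 averaged 63.2 and 53.7 FPKM. Other listed neighbours were low in both: HOOK2 averaged 2.15 and 2.45 FPKM and BEST2 0.0172 and 0 FPKM. THSD8, RNASEH2A, RTBDN and MAST1, the next listed genes after PRDX2, averaged at most 0.371 and 0.259 FPKM.

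The PRDX2 window held 46 CpG dinucleotides, the most among the 8 members with a window, with 73.7% G and C and 1 GC box. The antioxidant response element core, the NF-kB motif and the FOXO motif were not in it. Its upstream part lies at chr19:12801801-12802050 on the minus strand, with the GC box in capitals on the strand shown as its reverse complement.
PRDX2 promoter: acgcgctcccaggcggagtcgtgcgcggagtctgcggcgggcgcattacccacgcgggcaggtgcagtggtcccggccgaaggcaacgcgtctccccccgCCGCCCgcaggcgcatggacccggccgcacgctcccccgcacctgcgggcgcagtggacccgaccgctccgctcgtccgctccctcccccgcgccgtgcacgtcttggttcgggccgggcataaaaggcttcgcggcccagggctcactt

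After ISP-I, PRDX2 in H460 was at 19.1, 13.5 and 30.2 FPKM, and the highest treated library overlapped the controls. The log2 difference was -0.66 ± 0.25 (SE, limma adjusted p = 0.043), and it was -0.95 without library 3 (limma adjusted p = 0.00038). Without any other single library of the line the call was lost, at limma adjusted p values of 0.066 to 0.125. In A549 it was tested near the floor, with a log2 difference of 0.09 (limma adjusted p = 0.52), from 11 and 17 reads in the groups. Without A549 control library 3 it was 0.22 and passed (limma adjusted p = 0.031), a value that rests on 1 read in control.

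PRDX4 (chrX:23664262-23686397, plus strand), which takes part in oxidative protein folding, was at 109, 110 and 69.0 FPKM in H460 control and at 61.1, 51.9 and 72.4 FPKM in ISP-I. The log2 difference was -0.61 ± 0.21 (SE, limma adjusted p = 0.029), with 1 treated library above the lowest control. The call was lost without H460 control library 1 or 2 or ISP-I library 1 or 2, at limma adjusted p values of 0.076 to 0.108. In A549 it was at 79.5, 71.3 and 96.5 FPKM in control and 69.5, 79.4 and 71.0 FPKM in ISP-I, and the difference of -0.16 (95% interval -0.42 to 0.10) missed the threshold (limma adjusted p = 0.26).

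PRDX5 (chr11:64318121-64321811, plus strand), found in mitochondria, peroxisomes and cytosol, was at 97.9, 96.5 and 95.4 FPKM in H460 control and at 47.9, 38.3 and 117 FPKM in H460 ISP-I. The treated libraries lay on either side of the controls. The log2 difference of -0.68 (95% interval -1.49 to 0.13) missed the threshold (limma adjusted p = 0.12), and without library 3 it was -1.15 and passed (limma adjusted p = 1.9e-05). In A549, PRDX5 rose from 184, 164 and 292 FPKM to 313, 361 and 326 FPKM, by 0.68 ± 0.19 on the log2 scale (SE, limma adjusted p = 0.017). It was 0.93 without A549 control library 3, and the call was lost without A549 control library 1 (limma adjusted p = 0.060) or ISP-I library 2 (limma adjusted p = 0.065).

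PRDX6 (chr1:173477330-173488815, plus strand) uses a single reactive cysteine and also acts on phospholipids. It fell in H460, from 259, 271 and 225 FPKM to 131, 121 and 185 FPKM, by a log2 difference of -0.81 ± 0.19 (SE, limma adjusted p = 0.0047), without overlap. In A549 the values were 80.3, 74.0 and 105 FPKM in control and 78.0, 85.3 and 79.0 FPKM in ISP-I, with a log2 difference of -0.08 (95% interval -0.36 to 0.20, limma adjusted p = 0.60).

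**Figure D2:**
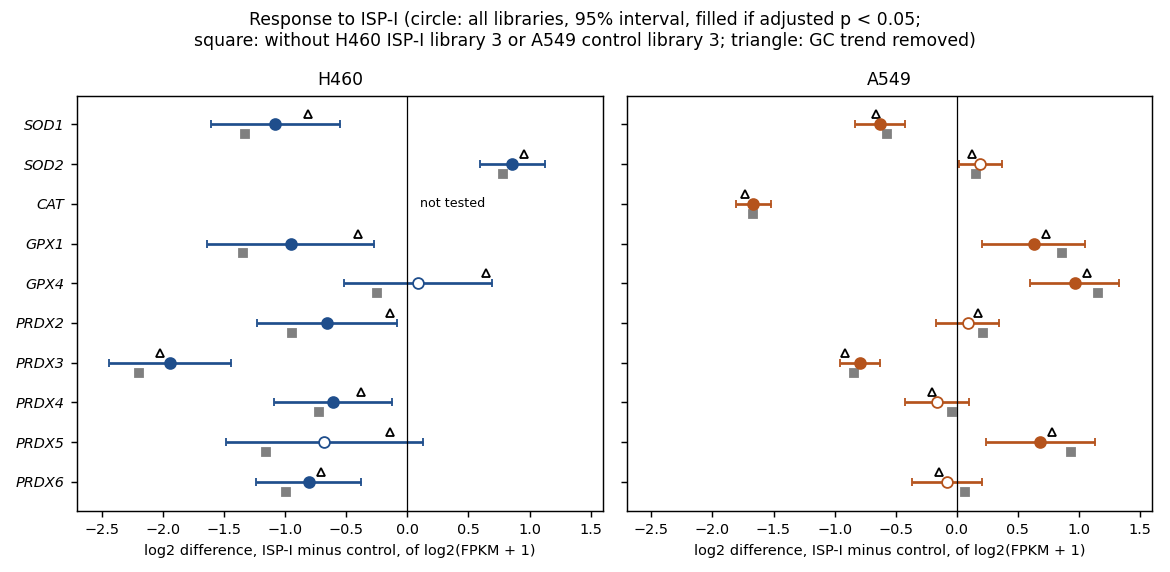
Log2 difference, ISP-I minus control, of log2(FPKM + 1) (x axis) for the 10 genes in H460 (left) and A549 (right), with 95% intervals from limma. Filled circles passed an adjusted p under 0.05, grey squares leave out H460 ISP-I library 3 (left) or A549 control library 3 (right), and open triangles have the GC trend removed. SOD1 and PRDX3 lie left of 0 in both lines under all 3 settings, while GPX4 in H460 lies on either side.

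Counted over the list, 6 of the 9 members tested in H460 were called lower (SOD1, GPX1, PRDX2, PRDX3, PRDX4 and PRDX6) and 1 higher (SOD2), while of all 13423 genes tested 41.5% were called lower and 27.6% higher. At a fold change over 2, SOD1 and PRDX3 were called lower, against 15.2% of all genes, and no member was called higher, against 10.5%. The members' median log2 difference was -0.68 and that of all genes -0.15. Scaling by the median of ratios in place of the total of reads moved the median of all genes in H460 to 0.02, and GPX1, PRDX2 and PRDX4 were then no longer called, while SOD1, SOD2, PRDX3 and PRDX6 were.

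In A549, 3 of the 10 members tested were called lower (SOD1, CAT and PRDX3), against 27% of all 13705 genes, and 3 were called higher (GPX1, GPX4 and PRDX5), against 30.5%. CAT was the only member called lower at a fold change over 2, where 3.51% of all genes were, and none was called higher, where 4.2% were. The members' median log2 difference was 0.0039 and that of all genes 0.020. The 10 members tested include PRDX2, near the floor in A549 at 11 and 17 reads, and its value enters this median. SOD1 and PRDX3 were thus called lower in both lines. GPX1 was called lower in H460 and higher in A549, but neither GPX1 call held under every alternative.

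The difference between the lines was tested as the interaction of line and treatment over all 12 libraries, H460 response minus A549 response. It was called lower in H460 for GPX1, PRDX3, PRDX5 and PRDX6, 4 of 10 members against 34.7% of 13953 genes, and higher for SOD2, where 18.6% of genes were called higher. CAT also had an adjusted p under the threshold, but it passed the filter only through A549, and near 0 in H460 it could not fall there. It is not read as a difference in response. For GPX1 the interaction was -1.58 ± 0.39 (SE, limma adjusted p = 0.0048), for PRDX5 -1.36 ± 0.46 (SE, limma adjusted p = 0.025), for PRDX3 -1.15 ± 0.25 (SE, limma adjusted p = 0.0020) and for SOD2 0.67 ± 0.12 (SE, limma adjusted p = 0.00067). PRDX6 differed by -0.73 ± 0.23 (SE, limma adjusted p = 0.020). The CAT value, 1.72, is its fall in A549 set against that floor. Beyond 1 on the log2 scale, 3 members were called lower (GPX1, PRDX3 and PRDX5), against 10.1% of genes, and apart from CAT no member was called higher, where 5.93% of genes were. GPX4 at -0.88 (limma adjusted p = 0.0503) and PRDX2 at -0.74 (limma adjusted p = 0.059) missed the threshold, and without H460 ISP-I library 3 these and SOD1 passed, at -1.21, -1.03 and -0.70. Without A549 control library 3, GPX4 and PRDX2 passed at -1.07 and -0.87. PRDX2 is near 0 in A549, so its values are the fall in H460 set against a floor. The PRDX5 interaction was lost without H460 ISP-I library 1 or 2, A549 control library 1 or 2 or A549 ISP-I library 2, at limma adjusted p values of 0.053 to 0.065, and that of PRDX6 without A549 control library 2 (limma adjusted p = 0.054). With median-of-ratios scaling both were lost, at -1.05 for PRDX5 (limma adjusted p = 0.079) and -0.41 for PRDX6 (limma adjusted p = 0.18). The same held with voom, at -1.07 (limma adjusted p = 0.055) and -0.41 (limma adjusted p = 0.16). SOD1 with all libraries differed by -0.45 (95% interval -1.04 to 0.14) and PRDX4 by -0.45 (-1.01 to 0.11), and PRDX4 passed without H460 control library 3 at -0.67 (limma adjusted p = 0.020).

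In the untreated cells 3 members were called higher in H460 than in A549 (SOD2, PRDX2 and PRDX6) and 2 lower (CAT and PRDX5), against 27.1% and 30.4% of 13953 genes. At a fold change over 2 these were PRDX2 and PRDX6 against 5.47%, and CAT and PRDX5 against 8.5%. PRDX6 was 2.92 times as high in H460 control as in A549 control, a log2 difference of 1.55 ± 0.17 (SE, limma adjusted p = 5.1e-06), and PRDX5 was at 0.453 of the A549 level, -1.09 ± 0.33 (SE, limma adjusted p = 0.012). Without A549 control library 3 PRDX5 was -0.84 and missed the threshold (limma adjusted p = 0.053). The SOD2 difference was 0.22 (limma adjusted p = 0.048) and missed the threshold without any single library but H460 ISP-I 1, 2 or 3. SOD1, at 0.39 with all libraries (limma adjusted p = 0.098), passed at 0.54 without H460 control library 3, GPX1 at 0.76 without A549 control library 3, and PRDX4 at 0.42 without H460 control library 3. Without H460 ISP-I library 3, which enters this contrast only through the shared estimate of spread, SOD1 at 0.39 (limma adjusted p = 0.014) and GPX1 at 0.53 (limma adjusted p = 0.012) also passed. The 2 members near 0 in a line had fitted log2 differences of -4.54 (CAT) and 4.89 (PRDX2), sizes that depend on the pseudocount of 1, and since each passed the filter only through the line where it is high, these calls had to be made. These comparisons use the control libraries that also serve in the ISP-I contrasts.

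By mean FPKM, GPX1 and PRDX6 led in H460 control at 252 ± 18 and 252 ± 24 (SD, n = 3) and their ranges overlapped. SOD1, PRDX3, PRDX5 and PRDX4 followed at 115, 97.5, 96.6 and 96.0 FPKM, each overlapping its neighbour in the order. GPX4 at 36.6 and PRDX2 at 32.0 FPKM overlapped as well, and SOD2 at 6.45 and CAT at 0.0127 FPKM stood alone. In A549 control PRDX5 and GPX1 led at 213 ± 69 and 179 ± 53 FPKM (SD, n = 3) with overlapping ranges, and SOD1, PRDX6, PRDX3 and PRDX4 lay together at 82.4 to 86.4 FPKM. GPX4 at 43.0, CAT at 22.6, SOD2 at 5.40 and PRDX2 at 0.123 FPKM each lay apart from the next. The order depends on the length used. Per kilobase of the MANE Select transcript, a scale added after the data were seen, PRDX6 came before GPX1 in H460 control at 344 and 332 reads per kilobase, scaled to the same library total as FPKM, and GPX1 came before PRDX5 in A549 control at 236 and 213.

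The summed FPKM of the 10 genes was 1015, 1038 and 901 in H460 control and 476, 421 and 814 in H460 ISP-I, and 742, 681 and 989 in A549 control and 915, 1031 and 927 in A549 ISP-I. Every treated H460 library was below the controls, while the A549 groups overlapped through control library 3. The share of PRDX3 in the sum went from 9.97% ± 1.54 to 4.49% ± 0.16 (SD, n = 3) in H460 and from 10.9% ± 2.5 to 5.09% ± 0.23 in A549. The share of GPX4 went from 3.73% ± 0.41 to 7.11% ± 0.52 in H460 and from 5.31% ± 0.30 to 8.68% ± 0.26 in A549. In H460 the GPX4 level itself was not called (log2 difference 0.09, limma adjusted p = 0.78), and the sum it is divided by was lower. SOD2 made up 0.657% ± 0.045 of the sum in H460 control and 2.34% ± 0.58 in H460 ISP-I, and 0.693% ± 0.157 and 0.661% ± 0.060 in A549. PRDX6 held 25.6% in H460 control and 26.3% in H460 ISP-I, against 10.8% and 8.44% in A549. The shares are a description and were not tested.

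**Figure D3:**
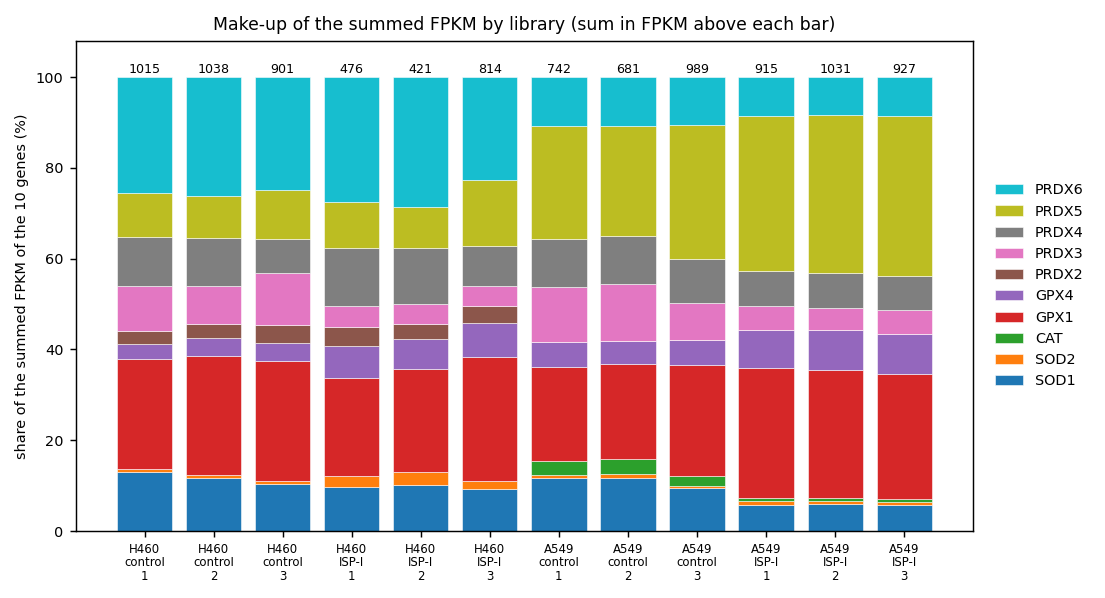
Share (y axis, %) of each gene in the summed FPKM of the 10 genes for each of the 12 libraries, with the sum in FPKM above each bar. PRDX6 takes a wide band in H460 and PRDX5 in A549, the CAT band is seen only in A549, and the PRDX3 band is narrower in the treated libraries of both lines.

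The ratio of SOD2 to SOD1, which does not depend on how libraries are scaled, was higher in the treated libraries. It was 0.0527, 0.0517 and 0.0667 in H460 control and 0.2503, 0.281 and 0.184 in H460 ISP-I, or 4.14 times the control ratio by geometric means. In A549 it was 0.0654, 0.0685 and 0.0546 in control and 0.125, 0.101 and 0.116 in ISP-I, or 1.82 times. All 3 treated libraries were above all 3 controls in each line, and the exact permutation test, 2-sided, gave p = 0.1, the smallest that 3 against 3 allows. In reads not divided by length the ratio was 0.524 and 2.19 on average in H460 and 0.577 and 1.05 in A549. In A549 ISP-I library 2 it was 0.932, so that 1 of the 6 treated libraries held fewer SOD2 than SOD1 reads. A library's trend with length or with G and C can still move the ratio, as SOD1 is listed at 1975 bases and SOD2 at 18144. H460 ISP-I library 3, which stood apart, had the lowest treated ratio in H460. With the GC trend removed the H460 log2 differences were 0.95 for SOD2 and -0.81 for SOD1, against 0.86 and -1.08.

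**Figure D4:**
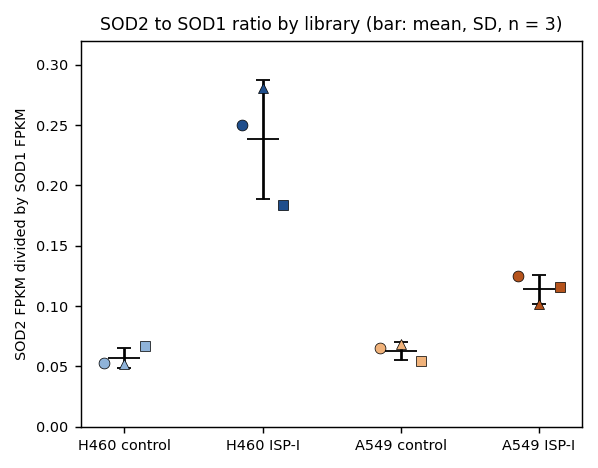
SOD2 FPKM divided by SOD1 FPKM (y axis, from 0) in the 12 libraries by group, with the mean and SD of 3 libraries. The H460 ISP-I libraries lie at 0.184 to 0.281, above the H460 controls at 0.0517 to 0.0667, and the A549 ISP-I libraries at 0.101 to 0.125 lie above their controls.

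Around the 10 members, 9 lists of related genes, 130 in all, were described by counts and medians. Of the other peroxiredoxin, glutathione peroxidase and superoxide dismutase genes, 4 of 8 were tested in each line, and 3 were called lower and 0 higher in either. GPX8, of the endoplasmic reticulum, fell by 3.09 on the log2 scale in H460 and by 1.71 in A549. GPX3, the secreted plasma form, fell by 1.66 in H460, and GPX2, the gastrointestinal form, fell by 2.89 in A549, from 73.8 ± 8.0 to 9.09 ± 0.87 FPKM (SD, n = 3). The limma adjusted p values of these genes were 1.3e-05 or lower. For all lists, the changes given are log2 differences of log2(FPKM + 1), ISP-I minus control, and calls are read against the shares of all genes given above.

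The genes that supply NADPH were mostly lower. Of 14 tested, 11 were called lower and 0 higher in H460, with a median of -0.91 against -0.15 for all genes, and 10 were called lower and 1 higher in A549, with a median of -0.43 against 0.020. IDH1, the cytosolic isocitrate dehydrogenase, fell by 2.19 and IDH2, the mitochondrial one, fell by 1.198 in H460. In A549, IDH2 fell by 1.36. Of 10 genes of glutathione synthesis and recycling, H460 had 3 called lower and 2 called higher, and A549 had 7 called lower and 0 called higher. GSR, which restores reduced glutathione, fell by 1.36 in H460 and fell by 1.38 in A549. GCLC, of the first step of glutathione synthesis, fell by 0.98 in A549, and OPLAH fell by 1.33 in H460.

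In the list of the thioredoxin and glutaredoxin systems, H460 had 5 genes called higher and 7 called lower of 15. A549 had 8 called higher and 3 called lower of 14. Not all of these genes act to restore peroxiredoxins. TXNIP, an inhibitor of thioredoxin, is among those called higher in both lines. It rose from 17.3 ± 1.7 to 186 ± 10 FPKM (SD, n = 3) in H460 and from 0.0830 to 3.25 FPKM in A549. NXN, a thioredoxin-like gene, had a log2 difference of -1.74 in H460, and GLRX3 one of 1.19 in A549. Of 10 genes of selenoprotein synthesis, on which GPX1 and GPX4 depend, H460 had 1 called higher and 5 called lower, and A549 had 5 called higher and 2 called lower. SEPHS1, related to the selenophosphate synthetase, was lower in both lines, by log2 differences of -1.95 and -0.67. LRP8, a receptor for selenoprotein P, had -1.69 in H460, and SEPHS2, the selenophosphate synthetase, had 0.70 in A549.

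Of the genes that deliver metals to the enzymes, 3 of 11 were called higher and 6 were called lower in H460. In A549 these counts were 3 and 3. SLC39A8, a manganese and zinc importer, fell by 1.69 in H460 and by 0.79 in A549, the copper importer SLC31A1 fell by 0.70 in H460, and SLC39A14 had 0.47 in A549. The SOD1 copper chaperone CCS, which lies outside the naming rule and was chosen for its role after its values were seen, had -0.996 in H460 (limma adjusted p = 0.0053) and -0.16 in A549 (limma adjusted p = 0.39). Of 17 genes of peroxisome assembly and oxidases, where catalase works, H460 had 3 called higher and 10 called lower, and A549 had 4 called higher and 1 called lower. PEX13, of the import machinery, rose in both, by 1.30 and 0.64 on the log2 scale. PEX2 had -1.25 in H460 and PEX16 had 0.68 in A549.

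Among sources of superoxide and peroxide, H460 had 3 of 12 called higher and 5 called lower, and A549 had 5 of 14 called higher and 2 called lower. ERO1B, an oxidase of the endoplasmic reticulum, had a log2 difference of 2.03 and NOXA1, an activator of an NADPH oxidase, 0.92 in H460. XDH, xanthine dehydrogenase, had 1.49 and SMOX, spermine oxidase, 1.53 in A549. Of 18 regulators of antioxidant genes, H460 had 12 called higher and 4 called lower, with a median of 1.32 against -0.15 for all genes. A549 had 10 called higher and 1 called lower, with a median of 0.30 against 0.020. The list also holds KEAP1, whose loss the paper links to an active antioxidant response, so the counts are not counts of activators. RELB and NFKB2, NF-kB subunits, rose by 4.26 and 3.17 on the log2 scale in H460. NFKB2 rose by 0.86 and MAFF, a small MAF protein, by 1.90 in A549.

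**Figure D5:**
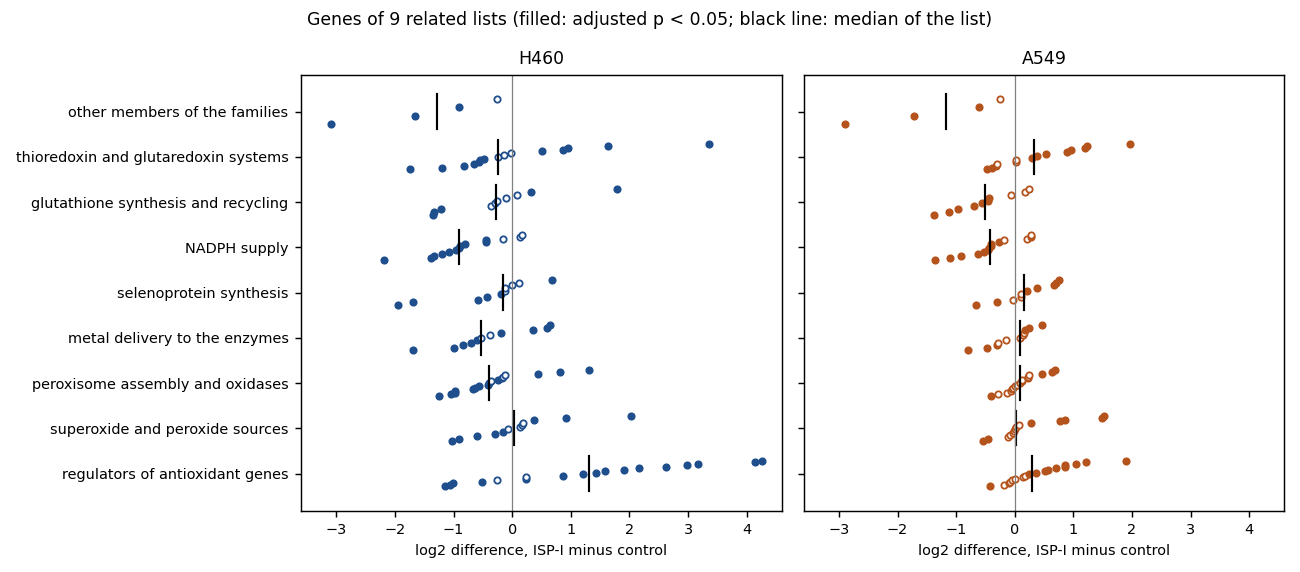
Log2 difference, ISP-I minus control (x axis), of each tested gene of 9 related lists (y axis) in H460 (left) and A549 (right). Filled points passed an adjusted p under 0.05 and the black line is the median of the list, which lies at -0.91 for NADPH supply and 1.32 for regulators in H460.

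CAT and PRDX2 had the widest ranges of group means. Of 6650 genes whose mean reached 5 FPKM, DNM1, INHBB and HPGD followed CAT most closely over the 12 libraries, with Pearson r of 0.9989, 0.9986 and 0.9984 on the log2 scale, and 124 genes exceeded 0.95. DNM1 averaged 0.236, 0.140, 29.5 and 8.88 FPKM in H460 control, H460 ISP-I, A549 control and A549 ISP-I. ATAD3B, ECM1 and GSTM1 were nearest to PRDX2, with r of 0.9966, 0.9958 and 0.9947, and 118 genes exceeded 0.95. ATAD3B averaged 30.3, 16.9, 0.0209 and 0.0380 FPKM in the same order. The libraries fall apart by line, so r mainly measures that gap and is given as a description.

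Other genes share sequence or position with some members. The GENCODE annotation lists 4 pseudogenes named after each of PRDX2 and PRDX3, 3 after SOD1, 2 after GPX1, and 1 each after SOD2, PRDX4 and PRDX5. PRDX2 lies within the span of HOOK2 on the same strand, GPX1 within a read-through gene, and PRDX6 overlaps PRDX6-AS1 on the opposite strand. How reads that fit several genes were counted is not given in the sources used here.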

How the data were processed

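RNA from non-treated and ISP-I treated H460 and A549 cells (3 libraries in each of 4 groups) was sequenced by the authors as paired-end reads, filtered with FastQC, mapped to hg38 with HISAT2 and counted on genes with HTSeq (0.9.1). The authors deposited FPKM and, beside them, a gene length in bases, which is another unit and no measurement of a sample. Multiplied by length, 100% of the FPKM values came out as whole reads (tolerance 0.05 reads), so reads were recovered; 4 lines that name no gene were left out. The annotation version and strand setting are not given in the sources used here.

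The column names give line and treatment only, so libraries are numbered by their place within a group, and every per-sample column was used. In each line log2(FPKM + 1) was compared with limma (3.58.1, R 4.3.3) with a mean-variance trend, 3 against 3, for genes whose mean reached 0.1 FPKM. Interaction and untreated contrasts came from a fit of all 12 libraries. Calls had an adjusted p under 0.05, or in addition a fold change over 2. The procedure was tested on simulated reads drawn around the mean of a line's controls. These held no trend of a library with length or G and C, so that test does not cover libraries that stand apart. The members and gene lists were chosen with earlier results of these data known. Named genes were the 10 members, up to 2 genes with the smallest p per list and line (with a mean that reached 1 FPKM), and the 3 genes nearest to each of the 2 members with the widest range of group means; a gene that the rule names is not reported here.

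Alternatives were a pseudocount of 0.1, a minimum mean of 1 FPKM or none, median-of-ratios scaling, quantile normalization, voom on the recovered reads, 1 fit of all libraries, each library left out, and, added after seeing the data, removal of each library's GC trend (lowess, span 0.3), MANE Select lengths, and leaving out H460 ISP-I library 3 and A549 control library 3 together. Pairs of libraries within a group differed by more than sampling noise (chi-square of 3.03 or more per gene). Promoter windows are from RefSeq (GRCh38.p14), of which 8 of the 10 members had at least 1, and positions are those of the table, in hg38, with GENCODE 44 for overlaps. Protein sequences were not analysed here.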

Additional observations from a re-analysis of the deposited data

Results flagged for a closer look

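The response to ISP-I differed between H460 and A549 by the interaction test for 5 members. Of all 13953 genes, 18.6% were called higher and 34.7% lower by the same test, so such a count is not particular to the members. The log2 differences, H460 minus A549, were 0.67 for SOD2, -1.58 for GPX1, -1.15 for PRDX3, -1.36 for PRDX5 and -0.73 for PRDX6. SOD2 was called in H460, GPX1 was called in opposite directions in the lines, and PRDX3 was called lower in both with a larger fall in H460. The GPX1 call in H460 was lost with the GC trend removed, at -0.40 (limma adjusted p = 0.17). It was also lost with median-of-ratios scaling (limma adjusted p = 0.082) and voom (limma adjusted p = 0.055). In either line the GPX1 call was lost when some single libraries were left out. CAT had an interaction of 1.72 under the threshold too, but with at most 8 reads in any H460 library this is its fall in A549 against a floor and shows no response in H460. With the GC trend removed the values were 0.83 for SOD2, -1.13 for GPX1 and -1.11 for PRDX3, which passed, and -0.92 for PRDX5 and -0.56 for PRDX6, which did not. With 3 libraries per group no test for an outlying library was applied.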

How the results depend on the processing

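No paired analysis was possible because the columns of the table carry the line and the treatment but not the replicate numbers of the labels. Of the members' log2 differences recomputed under the alternatives, 598 kept direction and side of the threshold, 54 were lost, 27 were gained and 4 turned; those 4 were GPX4 in H460, at -0.25 without H460 ISP-I library 3, and PRDX6 in A549, at 0.065 without A549 control library 3, each again when both libraries were left out. Over all libraries left out in turn they ran from -0.25 to 0.32 and from -0.18 to 0.065. The 6 members called lower in H460 became 3 with median-of-ratios scaling, 3 with voom and 3 with the GC trend removed, and 3 to 7 when a library was left out. Those lower over 2-fold (2) became 1, 1 and 1 under these settings, 4 with both libraries left out, and 1 to 4 when 1 was left out. With the GC trend removed 2 members were called higher in H460, and with median-of-ratios scaling or voom 1 was higher over 2-fold. In A549 the 3 called higher became 1 in the fit of all 12 libraries and 1 to 4 when a library was left out, and those over 2-fold went from 0 to 1 with the GC trend removed or both libraries left out, and 0 to 1 when 1 was. For the interaction, the 4 lower became 2 with median-of-ratios scaling, 2 with voom, 2 with the GC trend removed and 8 with both libraries left out, and 2 to 7 when 1 was. Those over 2-fold (3) became 1, 1 and, with both left out, 6, and 1 to 5 when 1 was. With voom 2 were higher over 2-fold, a count that holds CAT. In the untreated cells the 3 higher were 2 to 5 and the 2 lower 1 to 2 when a library was left out, and lower over 2-fold 1 to 2, with 1 when both were left out. The cause of these changes was not tested. The ratio of SOD2 to SOD1 in ISP-I against control was 3.79 to 4.68 in H460 and 1.70 to 1.92 in A549 when a library was left out. Another listed length cannot move it, while a library's trend with length or with G and C can. CAT in H460 and PRDX2 in A549 are limited by depth, at 0 to 10 reads a library.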
